A study of Mus musculus with 8 samples.

Results

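Lipid-associated macrophages are tissue macrophages that take up lipid and clear dying cells, and they have been described in fatty liver, obese fat and atherosclerotic plaque. The 10 genes followed here are commonly used to recognise them: the membrane glycoprotein gene *Gpnmb*, the receptor *Trem2*, the tetraspanin *Cd9*, the secreted proteins *Spp1* and *Lgals3*, and the lysosomal and protease genes *Cd68*, *Atp6v0d2*, *Mmp12*, *Ctss* and *Lyz2*. They were matched by gene symbol, and all 10 were present among the 16540 genes of the count table. They were chosen by name with their CPM values and the difference between the groups in these same libraries already known, so that difference is given below as a description and no p is attached to it.

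The data were liver RNA-seq counts from male *Apoe*-/- mice on a Western diet, 4 given the vehicle and 4 given isoginkgetin (ISOGK) at 20 mg/kg/day by intraperitoneal injection for 8 weeks, with 1 library per mouse. Both groups carried the *Apoe* knockout, which raises plasma cholesterol, so no mouse with intact *Apoe* was compared. ISOGK is a biflavonoid from *Ginkgo biloba* studied as an inhibitor of ACLY, the enzyme that makes cytosolic acetyl-CoA from citrate. The vehicle columns carry the name of the solvent DMSO, and the mice's age was not given in the labels. The question asked of the comparison was how ISOGK changed gene expression in the liver.

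TREM2 is a surface receptor for lipids and lipoproteins that signals through the adaptor TYROBP (DAP12) and the kinase SYK, and in macrophages it favours lipid handling and the clearing of debris. GPNMB is a glycoprotein of lysosomes and late endosomes whose gene is switched on under lysosomal stress and lipid load, in part by the MiT/TFE transcription factors. Whole liver is mostly hepatocytes, so a macrophage gene is read here against RNA from many other cells, and several of the 10 genes are also made by other cells, such as *Spp1* by bile duct cells and *Cd9* by many cell types.

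Between 19605286 and 24461854 reads were counted per vehicle-treated mouse and between 17457106 and 21626399 per ISOGK-treated mouse, and each of the 10 genes had at least 25 counts in every library. Levels are given as CPM, the usual library-scaled read counts, here with the TMM factors of edgeR, and all 10 genes were among the 12307 that passed the low-count filter. Skeletal muscle genes stood out in 1 library, vehicle-treated mouse 4, in which all 10 muscle markers examined were higher than in any other library (27 to 451 counts, against at most 9 elsewhere), led by the myosin gene *Myh4* and the actin gene *Acta1*. The log2 fold changes of the members were therefore also computed without that mouse.

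Of the 10 genes, 4 were called lower and 0 higher in the ISOGK group by the quasi-likelihood test of edgeR at an adjusted p under 0.05. These were *Gpnmb*, *Cd68*, *Lgals3* and *Atp6v0d2*. Across all genes tested, 3.44% were called lower and 4.11% higher, or 423 and 506 genes; with scaling by library size alone the split was 804 lower and 262 higher. At an unadjusted p under 0.05 the counts were 4 lower and 1 higher of the 10, beside 1433 lower and 1540 higher of the 12307 genes tested. The unadjusted counts of the lists below are to be read beside these. DESeq2 and limma-voom each called 4 members lower and 0 higher. Over all genes DESeq2 called 670 lower and 765 higher, and limma-voom 411 and 461. With no filter beyond 1 count 3 were called lower, and with vehicle-treated mouse 1, 2 or 4 or ISOGK-treated mouse 2 or 3 left out 2 were, *Gpnmb* and *Cd68*. Over all genes the calls dropped to 160 lower and 219 higher without vehicle-treated mouse 2. With a log2 fold change below -1 also required, 2 of the 10 were called lower, *Gpnmb* and *Atp6v0d2*, against 0.626% of all genes, and 0 were called higher with one above 1, against 0.999%. For the same 4 genes the highest ISOGK value was under the lowest vehicle value, which held for 7.36% of all genes, and the opposite order held for 0 of the 10 and for 7.92% of all genes. Since the list was assembled with this comparison in view, nothing is read from these counts. The median log2 fold change of the 10 genes was -0.32, beside 0.00176 for all genes tested.

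The 250 bases before the RefSeq start site of *Gpnmb*, *Cd68* and *Trem2* are shown because these genes are the anchor of the list, a called lysosomal member and the receptor that defines the cell state. The build was GRCm38.p6, each sequence runs 5′ to 3′ on the gene's own strand, and capitals mark matches to the AP-1 letters TGANTCA. The windows were chr6:49036268-49036517 (plus strand) for *Gpnmb*, chr11:69666171-69666420 (minus strand) for *Cd68* and chr17:48346151-48346400 (plus strand) for *Trem2*.
Gpnmb: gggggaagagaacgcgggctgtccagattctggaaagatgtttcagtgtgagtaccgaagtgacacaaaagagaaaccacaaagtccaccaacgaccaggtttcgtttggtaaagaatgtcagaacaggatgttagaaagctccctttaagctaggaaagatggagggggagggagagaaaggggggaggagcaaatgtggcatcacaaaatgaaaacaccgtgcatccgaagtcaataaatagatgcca
Cd68: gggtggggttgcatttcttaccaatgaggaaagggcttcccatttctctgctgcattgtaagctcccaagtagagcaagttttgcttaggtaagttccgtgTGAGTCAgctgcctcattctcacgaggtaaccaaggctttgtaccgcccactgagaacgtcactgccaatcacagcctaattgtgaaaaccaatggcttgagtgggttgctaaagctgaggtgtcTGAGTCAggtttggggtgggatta
Trem2: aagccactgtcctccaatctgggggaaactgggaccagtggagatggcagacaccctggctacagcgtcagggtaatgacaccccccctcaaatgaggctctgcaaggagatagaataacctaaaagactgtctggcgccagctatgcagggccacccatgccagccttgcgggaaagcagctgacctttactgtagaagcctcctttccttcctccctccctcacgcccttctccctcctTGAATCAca

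RefSeq gave such a window for 9 of the 10 genes, and 5 motifs were searched in them on both strands. The motifs were the E-box CACGTG, the M-box CATGTG, the AP-1 letters TGANTCA, the PU.1 core AGGAAGT and the nuclear receptor repeat DR1, which is AGGTCA repeated after a gap of 1 base. Over 32851 mouse promoter windows of the same length, they were found in 6.02%, 12.3%, 6.75%, 7.69% and 0.0335% of windows respectively. *Cd68* held AP-1 letters at 149 to 143 and at 24 to 18 bases before the start, and *Trem2* at 9 to 3 bases before it. The *Gpnmb* window held no match to any of the 5, nor did those of *Ctss* and *Lgals3*. The PU.1 core lay in the windows of *Lyz2* (100 to 94 bases before the start), *Spp1* (112 to 106) and *Mmp12* (88 to 82), and the M-box in those of *Cd9* (38 to 33) and, for another *Mmp12* start, 83 to 78 bases before it. That other *Mmp12* start also had AP-1 letters 44 to 38 bases before it. A match describes the letters of the window and does not show a factor bound there.

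*Gpnmb* (GRCm38 chromosome 6, 49036546 to 49070929, plus strand) stood well apart between the groups. Its levels were 153, 164, 149 and 182 CPM in the vehicle-treated mice and 77.9, 65.4, 72.4 and 68.1 CPM in the ISOGK-treated mice. No ISOGK-treated mouse came near the vehicle range, and the mice of each group lay close together, with a coefficient of variation of 9.12% and 7.68%. The means were 162 ± 14.8 and 71.0 ± 5.45 CPM (SD, n = 4), a log2 fold change of -1.19 (SE 0.10) or 43.8% of the vehicle level. The counts behind these values were 3041 to 4142 per vehicle library and 1240 to 1588 per ISOGK library. Without vehicle-treated mouse 4, the log2 fold change was -1.13. In bulk liver, a smaller number of cells that express a gene and less of its RNA per cell cannot be told apart, which holds for every gene below.

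*Trem2* (chromosome 17, 48346401 to 48354147, plus strand) was more variable than *Gpnmb* and its groups overlapped. The vehicle-treated mice had 5.82, 10.2, 10.4 and 13.5 CPM and the ISOGK-treated mice 8.53, 9.97, 4.41 and 6.81 CPM. The lowest vehicle-treated mouse was below 3 of the 4 ISOGK-treated mice. The means were 9.97 ± 3.15 and 7.43 ± 2.39 CPM (SD, n = 4), with a log2 fold change of -0.42 (SE 0.28) that moved to -0.25 without vehicle-treated mouse 4.

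*Cd68* (chromosome 11, 69664213 to 69666153, minus strand) encodes macrosialin, a glycoprotein of macrophage lysosomes. It was measured at 45.5, 48.5, 51.9 and 56.6 CPM in the vehicle-treated mice and at 39.7, 31.8, 30.0 and 34.4 CPM in the ISOGK-treated mice. The highest ISOGK-treated mouse, mouse 1, lay just under the lowest vehicle-treated mouse, also mouse 1. The means were 50.6 ± 4.79 and 34.0 ± 4.23 CPM (SD, n = 4), a log2 fold change of -0.57 (SE 0.11), or -0.52 without vehicle-treated mouse 4.

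*Lgals3* (chromosome 14, 47367751 to 47386160, plus strand) encodes galectin-3, a sugar-binding protein that macrophages secrete and recruit to damaged lysosomes. The vehicle-treated mice had 37.4, 43.1, 38.9 and 43.9 CPM, and the ISOGK-treated mice had 34.5, 19.8, 21.1 and 29.9 CPM. The ISOGK-treated mice were spread more widely, with mice 2 and 3 far below the vehicle range and mouse 1 just under it. The means were 40.8 ± 3.15 and 26.3 ± 7.03 CPM (SD, n = 4), a log2 fold change of -0.63 (SE 0.16). The call was lost when any 1 of 7 of the 8 mice was left out, the exception being ISOGK-treated mouse 1, with a log2 fold change of -0.79 to -0.52 over the 8 fits and -0.60 without vehicle-treated mouse 4.

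*Atp6v0d2* (chromosome 4, 19876841 to 19922605, minus strand) encodes a subunit of the vacuolar proton pump that is abundant in osteoclasts and some macrophages, whereas its relative *Atp6v0d1* is expressed widely. It was low, at 7.58, 13.7, 6.39 and 10.8 CPM in the vehicle-treated mice and 4.27, 4.01, 4.13 and 1.31 CPM in the ISOGK-treated mice. All ISOGK-treated mice were below the vehicle range, and ISOGK-treated mouse 4, with 25 counts, was well below the other 3. The means were 9.61 ± 3.30 and 3.43 ± 1.42 CPM (SD, n = 4), a log2 fold change of -1.49 (SE 0.35). The call was lost without vehicle-treated mouse 1, 2 or 4 or without ISOGK-treated mouse 2 or 3, with values between -1.64 and -1.22 over all 8 fits and -1.43 without vehicle-treated mouse 4.

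**Figure D1:**
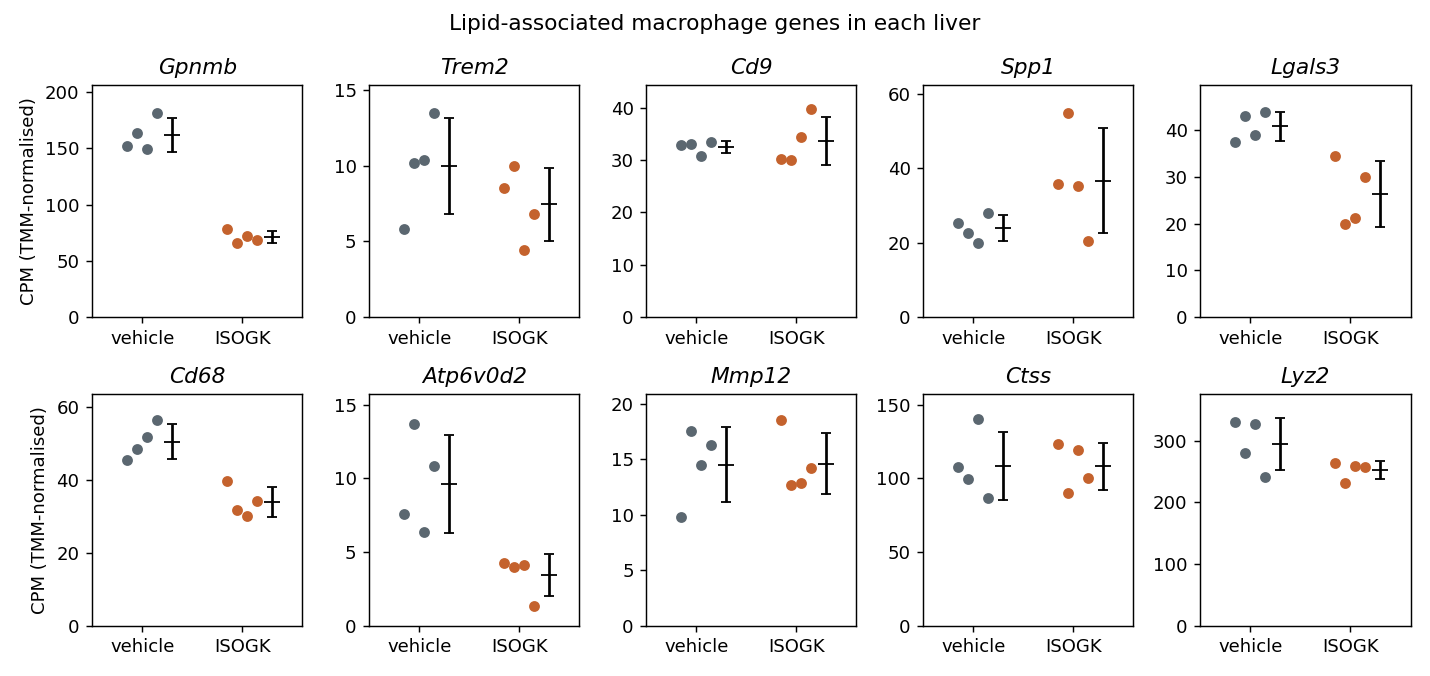
Level of each of the 10 lipid-associated macrophage genes in each liver, in TMM-normalised CPM, with grey points for the 4 vehicle-treated and orange points for the 4 ISOGK-treated mice and bars for mean ± SD. The points do not overlap between groups for *Gpnmb*, *Lgals3*, *Cd68* and *Atp6v0d2*, and overlap for the other 6 genes.

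*Spp1* (chromosome 5, 104435118 to 104441050, plus strand) encodes osteopontin, a secreted matrix protein that binds integrins and CD44. It was the member with the largest value above 0, yet its groups overlapped. The vehicle-treated mice had 25.3, 22.7, 19.9 and 27.9 CPM, and the ISOGK-treated mice had 35.7, 55.0, 35.3 and 20.5 CPM. ISOGK-treated mice 1 to 3 were above every vehicle-treated mouse, while mouse 4 was near the bottom of the vehicle range. The means were 24.0 ± 3.43 and 36.6 ± 14.1 CPM (SD, n = 4), a log2 fold change of 0.61 (SE 0.26), and without ISOGK-treated mouse 4 it was 0.81 and was called higher. Without vehicle-treated mouse 4 it was 0.69 and was not called. Markers of bile duct cells, which make osteopontin, are given beside it: the summed level of 9 markers was 16.8 to 21.9 CPM in the vehicle group and 22.3, 33.0, 32.1 and 24.99 CPM in ISOGK-treated mice 1 to 4. ISOGK-treated mice 1 to 3 were above every vehicle-treated mouse for both the markers and *Spp1*, and mouse 2 was the highest for both. ISOGK-treated mouse 4 was above every vehicle-treated mouse for the markers and near the vehicle minimum for *Spp1*. Of the 7 markers that could be tested, all had a log2 fold change above 0 (median 0.52) and only *Sox9* was called higher, a call lost with any mouse left out. Their part in the *Spp1* level was not tested.

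*Cd9* (chromosome 6, 125460266 to 125494791, minus strand), a tetraspanin that organises other membrane proteins, was steady in the vehicle group. The vehicle-treated mice had 32.9, 33.1, 30.7 and 33.4 CPM, and the ISOGK-treated mice had 30.2, 30.0, 34.5 and 39.8 CPM. ISOGK-treated mice 1 and 2 were below the vehicle-treated mice and mice 3 and 4 above them. The means were 32.5 ± 1.22 and 33.6 ± 4.63 CPM (SD, n = 4), with a log2 fold change of 0.05 (SE 0.10), or 0.06 without vehicle-treated mouse 4.

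*Mmp12* (chromosome 9, 7344381 to 7369499, plus strand) encodes macrophage elastase, a secreted metalloproteinase. Its levels were 9.78, 17.6, 14.5 and 16.3 CPM in the vehicle-treated mice and 18.6, 12.7, 12.8 and 14.3 CPM in the ISOGK-treated mice. Mouse 1 of each group lay at the edge, the lowest of its group under vehicle and the highest of its group under ISOGK. The means were 14.5 ± 3.40 and 14.6 ± 2.75 CPM (SD, n = 4), with a log2 fold change of 0.01 (SE 0.18), or 0.06 without vehicle-treated mouse 4.

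*Ctss* (chromosome 3, 95526786 to 95556403, plus strand) encodes cathepsin S, a lysosomal cysteine protease of antigen-presenting cells. It was at 108, 99.3, 140 and 86.6 CPM in the vehicle-treated mice and 123, 90.04, 119 and 100 CPM in the ISOGK-treated mice, so the ISOGK values all lay inside the vehicle range. The means were 109 ± 23.0 and 108 ± 15.8 CPM (SD, n = 4), with a log2 fold change of -0.01 (SE 0.15), or -0.10 without vehicle-treated mouse 4.

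*Lyz2* (chromosome 10, 117277331 to 117282321, minus strand) encodes the lysozyme of macrophages and neutrophils and was the most abundant of the 10 genes. Its levels were 330, 280, 326 and 241 CPM in the vehicle-treated mice and 263, 231, 259 and 257 CPM in the ISOGK-treated mice. Vehicle-treated mouse 4 was lower than 3 of the 4 ISOGK-treated mice, and the other 3 vehicle-treated mice were higher than all of them. The means were 294 ± 42.3 and 253 ± 14.8 CPM (SD, n = 4), a log2 fold change of -0.22 (SE 0.11), or -0.31 without vehicle-treated mouse 4. Its near-identical relative *Lyz1*, with which reads could be shared, had 3 to 19 counts per library, or 0.465 ± 0.188 CPM in the vehicle group and 0.293 ± 0.139 CPM in the ISOGK group (SD, n = 4), and did not pass the filter.

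**Figure D2:**
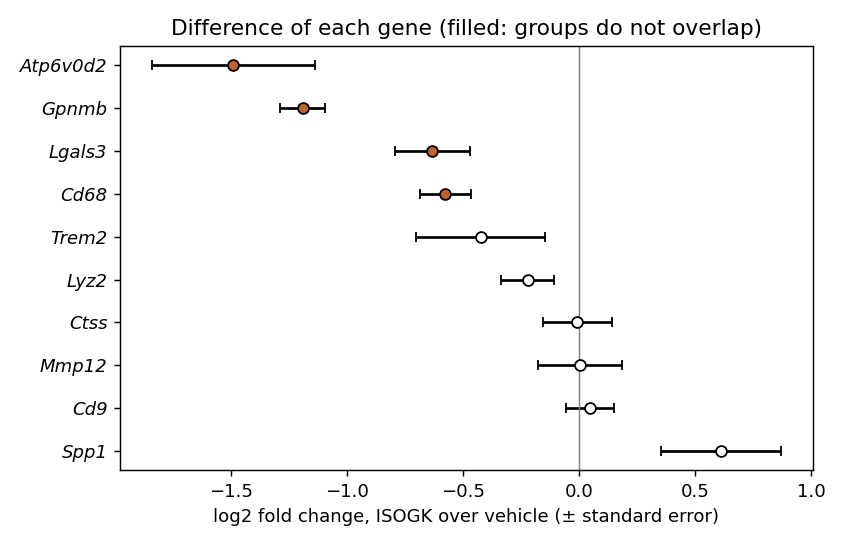
Log2 fold change of ISOGK over vehicle with its standard error from edgeR for each of the 10 genes, ordered by size, with filled points where the groups did not overlap. *Atp6v0d2* (-1.49) and *Gpnmb* (-1.19) are farthest below 0, and *Spp1* (0.61) is the farthest above it with an open point.

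The order of the genes was compared after division by the length of the principal transcript, in CPM per kilobase. In the vehicle group *Lyz2* was highest at 224, followed by *Ctss* at 80.1, *Gpnmb* at 43.7 and *Cd68* at 41.2. The ranges of *Gpnmb* (40.3 to 49.2) and *Cd68* (37.0 to 46.0) overlapped, as did those of *Lgals3* (26.4 to 30.9) and *Cd9* (25.02 to 27.2). *Spp1* followed at 15.9, *Trem2* at 9.16, *Mmp12* at 4.03 and *Atp6v0d2* at 3.79. In the ISOGK group *Gpnmb* stood sixth of the 10 at 19.2 CPM per kilobase, after *Lyz2* (192), *Ctss* (79.8), *Cd68* (27.6), *Cd9* (27.4) and *Spp1* (24.3). Its range there, 17.7 to 21.0, was below those of *Cd68* (24.4 to 32.3) and *Cd9* (24.4 to 32.4) and overlapped those of *Spp1* (13.6 to 36.5) and *Lgals3* (13.98 to 24.3). *Trem2* (6.83), *Mmp12* (4.05) and *Atp6v0d2* (1.35) remained the lowest. Length was taken from 1 transcript per gene, and over all annotated exons *Gpnmb* ranked 4 under vehicle and 7 under ISOGK.

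Genes that most tissue macrophages express gave a second scale. Which cells made the RNA of *Gpnmb* and the other members was not tested, and this scale does not show it. The 14 pan-macrophage genes, which include none of the 10, summed to 804 to 1149 CPM in the vehicle group and 665 to 886 CPM in the ISOGK group, with overlap. By edgeR 0 of the 14 were called in either direction, with 4 lower at an unadjusted p under 0.05, 1 lower by DESeq2 and 0 by limma-voom, and a median log2 fold change of -0.22. Of the 12307 genes tested, 1433 were lower at an unadjusted p under 0.05 in edgeR. *Mpeg1*, which encodes a pore-forming protein, was at 264 ± 34.7 and 211 ± 33.8 CPM, and *C1qc*, a complement chain, at 139 ± 15.4 and 113 ± 13.6 CPM (vehicle and ISOGK, SD, n = 4).

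*Gpnmb* amounted to 13.3, 18.7, 14.6 and 22.6% of that sum in the vehicle-treated mice and to 8.79, 9.85, 8.53 and 9.31% in the ISOGK-treated mice. *Atp6v0d2* amounted to 0.660, 1.56, 0.623 and 1.34% and to 0.482, 0.604, 0.486 and 0.179%. For these 2 of the 10 genes the groups did not overlap on this scale, although for *Atp6v0d2* the gap between the nearest mice was small. The share of all genes without overlap was not computed on this scale. The members were chosen with their group difference known, so nothing is read from this count. The highest *Gpnmb* share was that of vehicle-treated mouse 4, and the other 3 vehicle-treated mice were also above every ISOGK-treated mouse. *Cd68* (3.96 to 7.04% under vehicle and 3.54 to 4.78% under ISOGK) and *Lgals3* (3.26 to 5.46% and 2.49 to 4.09%) overlapped. *Ctss* lay at 9.40 to 13.7% under vehicle and 13.5 to 14.1% under ISOGK, *Lyz2* at 28.7 to 31.9% and 29.7 to 35.2%, and *Trem2* at 0.507 to 1.68% and 0.519 to 1.501%. *Spp1* (1.94 to 3.47% and 2.80 to 8.28%), *Cd9* (2.87 to 4.15% and 3.40 to 5.44%) and *Mmp12* (0.852 to 2.02% and 1.51 to 2.10%) also overlapped.

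**Figure D3:**
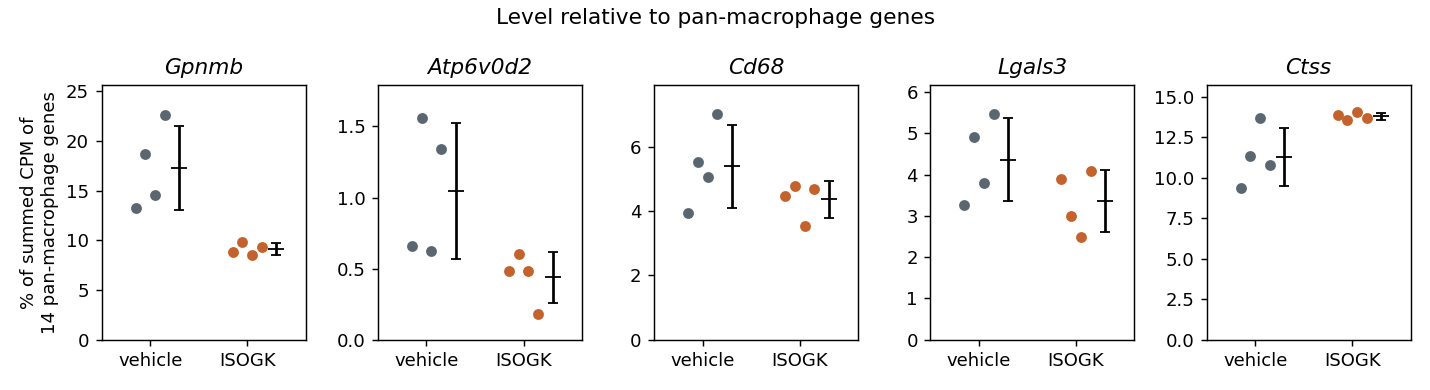
Level of *Gpnmb*, *Atp6v0d2*, *Cd68*, *Lgals3* and *Ctss* in each liver as a percentage of the summed CPM of 14 pan-macrophage genes, with mean ± SD of 4 mice per group. *Gpnmb* lies at 13.3 to 22.6% in the vehicle-treated mice and 8.53 to 9.85% in the ISOGK-treated mice, and the groups overlap for *Cd68*, *Lgals3* and *Ctss*.

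Markers of the immune cells around these genes did not move as 1 block. Of 12 markers of Kupffer cells, the resident macrophages of the liver, edgeR called 0, with 2 lower and 1 higher at an unadjusted p under 0.05, 1 lower by DESeq2 and 0 by limma-voom. They summed to 1362 to 1638 CPM under vehicle and 1199 to 1517 CPM under ISOGK, with a median log2 fold change of -0.15. The 2 most abundant were *Cd5l*, a secreted scavenger receptor, at 629 ± 39.3 and 480 ± 72.3 CPM, and *C6*, a complement component also made by hepatocytes, at 231 ± 41.4 and 301 ± 40.8 CPM (SD, n = 4). *Vsig4*, a complement receptor of Kupffer cells, was chosen after its values were seen: it was at 80.9 to 104 CPM in the vehicle-treated mice, at 75.0 to 94.4 CPM in ISOGK-treated mice 1 to 3 and at 5.34 CPM in ISOGK-treated mouse 4. The Kupffer list as a whole was not lowest in that mouse, at 1244 CPM against 1199 CPM in ISOGK-treated mouse 2. That sum gives most weight to abundant genes such as *Cd5l* and *C6*, so it does not show the number of Kupffer cells in that mouse.

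Of 9 monocyte markers edgeR called 2 higher and 0 lower, beside 4.11% and 3.44% of all genes tested. The lists here and below were compiled with earlier results of these data known, so their calls and adjusted p are given as a description. By log2 fold change 7 were above 0 and 2 below, with a median of 0.74. In edgeR 4 were higher and 0 lower at an unadjusted p under 0.05, beside 1540 higher and 1433 lower of the 12307 genes tested. DESeq2 called 3 of the monocyte markers higher and limma-voom 1. *Chil3*, a chitinase-like protein of monocytes and neutrophils, rose from 0.885 ± 0.484 to 4.33 ± 2.32 CPM (log2 fold change 2.26, edgeR adjusted p = 0.0162), and *Plac8* rose from 6.24 ± 1.13 to 10.5 ± 2.85 CPM (0.74, edgeR adjusted p = 0.0400). Of 8 neutrophil markers 6 could be tested and 1 was called higher by edgeR. It was the calcium-binding protein gene *S100a9*, which rose from 2.84 ± 0.745 to 7.05 ± 2.55 CPM (1.31, edgeR adjusted p = 0.0149). All 6 had a log2 fold change above 0 (median 1.17), and 5 were higher at an unadjusted p under 0.05 in edgeR. DESeq2 called 3 of them higher and limma-voom 1. The neutrophil markers summed to 5.45 to 9.93 CPM under vehicle and 9.38 to 30.4 CPM under ISOGK. The calls of *Chil3*, *Plac8* and *S100a9* held in 13 of 15, 8 of 16 and 15 of 16 alternative fits. *Fn1*, the most abundant gene of the monocyte list and also a hepatocyte product, was at 1923 ± 88.8 and 2285 ± 661 CPM (SD, n = 4). *Ngp*, of neutrophil granules, was at 0.722 ± 0.847 and 5.46 ± 4.00 CPM (SD, n = 4). Of 8 dendritic cell markers 4 could be tested and edgeR called 0, as did DESeq2 and limma-voom, with 0 at an unadjusted p under 0.05, and *Zbtb46* was at 4.76 ± 0.728 and 4.92 ± 0.939 CPM and *Clec9a* at 1.49 ± 0.111 and 1.27 ± 0.294 CPM (SD, n = 4).

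Osteoclasts share *Atp6v0d2*, *Gpnmb* and several lysosomal genes with lipid-laden macrophages. Of 8 osteoclast genes 5 could be tested. *Acp5*, the tartrate-resistant acid phosphatase that macrophages also make, fell from 97.3 ± 18.7 to 70.0 ± 5.52 CPM (log2 fold change -0.47, edgeR adjusted p = 0.0421). *Ocstamp*, a fusion protein gene, rose from 0.825 ± 0.444 to 2.08 ± 0.748 CPM (1.34, edgeR adjusted p = 0.0499). Neither call was stable, since *Acp5* was called in 8 of 16 alternative fits, none of them a fit with a mouse left out, and *Ocstamp* in 6. The list summed to 103 to 139 CPM under vehicle and 80.4 to 92.1 CPM under ISOGK. Most of that sum was *Acp5*, so it does not show the direction of the list. By log2 fold change 3 of the 5 tested genes were above 0 and 2 below, with a median of 0.21. *Nfatc1*, the transcription factor of osteoclast formation, was at 12.2 ± 1.37 and 11.9 ± 0.540 CPM (SD, n = 4). *Calcr* and *Oscar*, which mark osteoclasts more closely, had a mean of 0 CPM in the vehicle group. Neither passed the low-count filter, yet each had at least 1 count over all libraries, so they were not wholly absent under ISOGK.

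**Figure D4:**
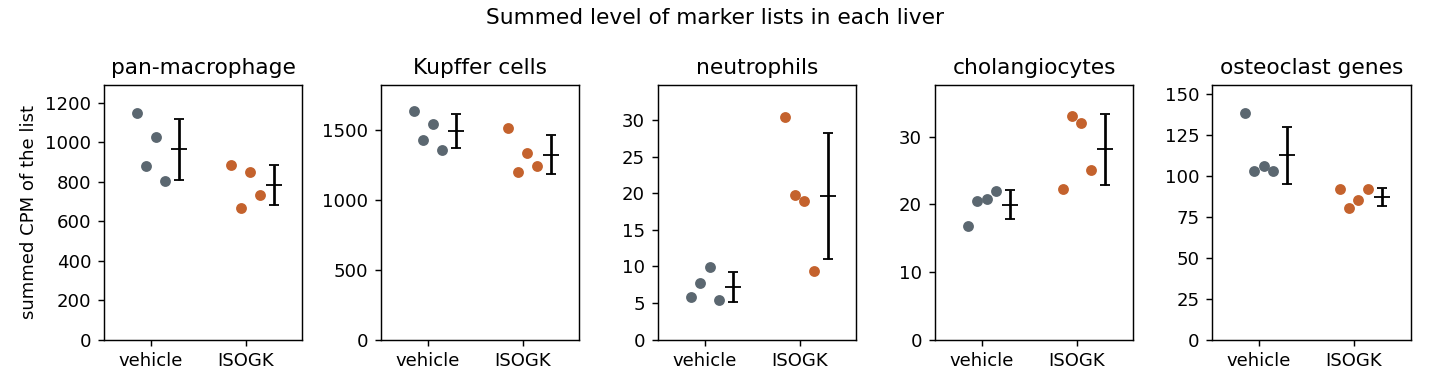
Summed CPM of 5 marker lists in each liver, with mean ± SD of 4 mice per group. Pan-macrophage (804 to 1149 and 665 to 886 CPM), Kupffer cell and neutrophil sums overlap between vehicle and ISOGK, while bile duct cell sums (16.8 to 21.9 and 22.3 to 33.0 CPM) and osteoclast gene sums do not. The osteoclast gene sum is mostly *Acp5*.

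Of 26 other genes known from lipid-associated macrophages, 3 fell and 4 rose, a mixed set with a median log2 fold change of -0.10. *Lpl*, lipoprotein lipase, fell from 87.6 ± 6.18 to 44.0 ± 12.6 CPM (log2 fold change -0.995, edgeR adjusted p = 0.00951). The lysosomal protease gene *Ctsb*, cathepsin B, fell by 0.44 on the log2 scale (edgeR adjusted p = 0.0118). The gene of the lipid droplet coat protein *Plin2* rose from 327 ± 63.1 to 965 ± 230 CPM (1.56, edgeR adjusted p = 0.00163), and *Creg1*, of endosomes and lysosomes, from 331 ± 16.2 to 479 ± 13.9 CPM (0.53, edgeR adjusted p = 0.00417). *Ctsl*, cathepsin L, rose from 611 ± 96.8 to 974 ± 151 CPM (0.67, edgeR adjusted p = 0.0152). *Nceh1*, a cholesteryl ester hydrolase, also rose, by 0.39 on the log2 scale (edgeR adjusted p = 0.0347), and was called in 8 of 16 alternative fits, whereas *Lpl*, *Ctsb*, *Plin2*, *Creg1* and *Ctsl* were called in all 16. *Apoc1*, an apolipoprotein mostly of hepatocytes, was the most abundant of the list, at 1789 ± 222 and 1723 ± 290 CPM (SD, n = 4). Like *Apoc1*, *Plin2*, *Ctsb*, *Ctsl* and *Creg1* are expressed in hepatocytes too.

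The partners of the members' proteins were followed in 7 lists. Of 10 genes of TREM2 signalling 9 could be tested, 2 fell and 0 rose, and all 9 had a log2 fold change below 0, with a median of -0.44. Of all genes tested, 3.44% were called lower and 4.11% higher, and 6134 of 12307 had a log2 fold change below 0. Of the 14 pan-macrophage genes 11 were below 0, with a median of -0.22, so this direction was not particular to the TREM2 list. *Pik3r1*, the regulatory subunit of PI3-kinase that most cells express, fell from 47.1 ± 7.70 to 26.0 ± 3.96 CPM (-0.86, edgeR adjusted p = 0.00436). *Sirpa*, an inhibitory receptor, fell from 79.8 ± 9.74 to 57.4 ± 7.91 CPM (-0.48, edgeR adjusted p = 0.0359; called in 11 of 16 alternative fits). *Tyrobp*, the adaptor of TREM2 itself, was at 28.8 ± 2.83 and 25.9 ± 5.79 CPM, and *Syk* at 21.5 ± 3.79 and 17.0 ± 3.70 CPM (SD, n = 4), both with overlap. With scaling by library size alone the median of all genes was -0.13, and values of that size or smaller are read against it.

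Of the 4 MiT/TFE factors edgeR called 0, with 0 at an unadjusted p under 0.05 and 0 by DESeq2 or limma-voom. *Tfe3* was at 25.3 ± 2.44 and 26.2 ± 1.77 CPM and *Tfeb* at 5.31 ± 0.514 and 5.54 ± 0.364 CPM (SD, n = 4). Of 16 other subunits of the vacuolar proton pump edgeR also called 0, with 3 higher at an unadjusted p under 0.05 and 0 by DESeq2 or limma-voom. Their median log2 fold change was 0.11, beside -1.49 for *Atp6v0d2*. *Atp6v0d1* was at 47.7 ± 3.82 and 51.0 ± 6.78 CPM, *Atp6v0c*, the pump's proteolipid ring, at 129 ± 7.09 and 140 ± 18.8 CPM, and *Atp6v1e1* at 90.9 ± 2.33 and 101 ± 6.69 CPM (SD, n = 4).

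Of 8 receptors that bind osteopontin edgeR called 0, as did DESeq2 and limma-voom, with 1 lower and 1 higher at an unadjusted p under 0.05 and a median of -0.04. The most abundant, *Itgb1* and *Itgb5*, were at 172 ± 7.97 and 164 ± 15.6 CPM and at 70.0 ± 7.87 and 68.7 ± 7.49 CPM (SD, n = 4). Of 12 other metalloproteinases and inhibitors 8 could be tested, and *Mmp15*, a membrane-bound metalloproteinase, fell by 0.67 on the log2 scale (edgeR adjusted p = 0.0322; called in 12 of 16 alternative fits). *Mmp19* was at 63.7 ± 3.36 and 50.2 ± 5.50 CPM and *Timp3*, an inhibitor, at 38.0 ± 3.35 and 42.7 ± 7.64 CPM (SD, n = 4). Of 12 other tetraspanins, *Tspan31* rose from 154 ± 12.0 to 237 ± 38.6 CPM (0.62, edgeR adjusted p = 0.0108), and *Cd81* was at 137 ± 5.67 and 136 ± 9.93 CPM (SD, n = 4). Of 13 other cathepsins and cystatins 12 could be tested, of which *Ctsb* fell and *Ctsl* and *Ctsf* rose, *Ctsf* by 0.37 on the log2 scale (edgeR adjusted p = 0.0465; called in 6 of 16 alternative fits).

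**Figure D5:**
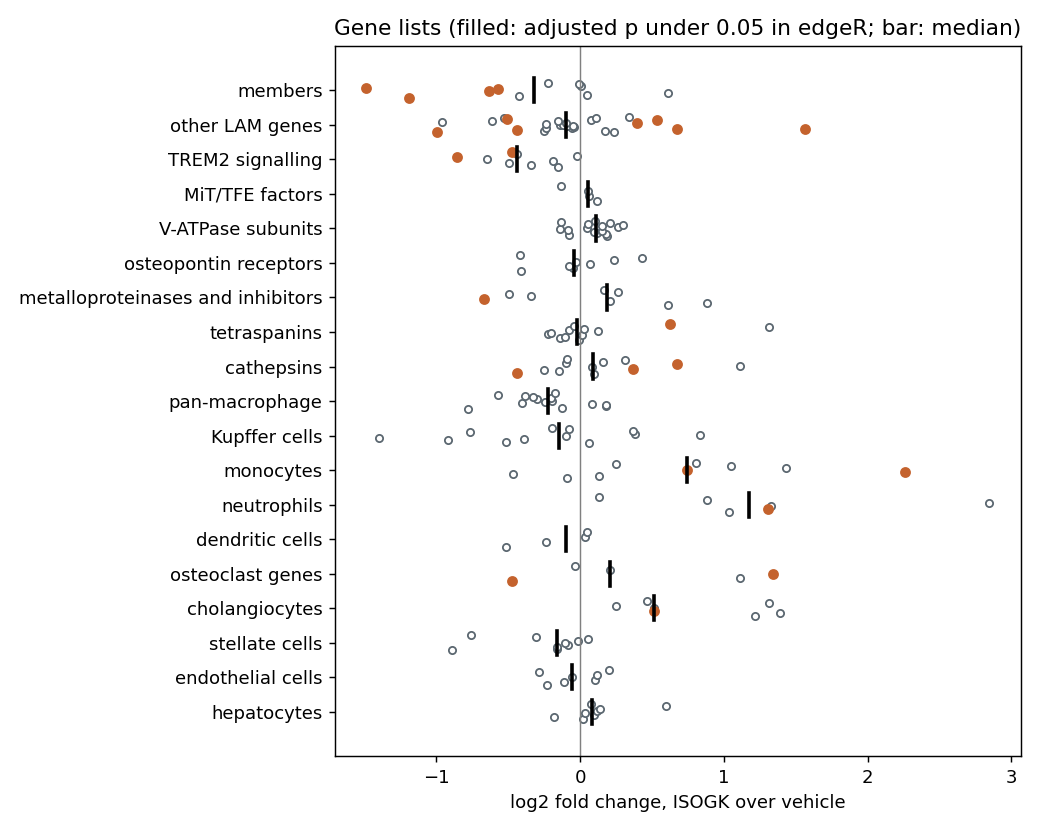
Log2 fold change of ISOGK over vehicle for each tested gene of the 10 members and 18 other lists, with filled points for genes at an adjusted p under 0.05 in edgeR and a bar at each list's median. The members have the median -0.32, TREM2 signalling -0.44 with all 9 points below 0, and the pump subunits 0.11. The pan-macrophage genes have the median -0.22 with 11 of 14 points below 0.

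Other liver cells were read from 4 further lists. Of the bile duct cell markers, *Sox9*, a transcription factor, rose from 4.08 ± 0.431 to 5.83 ± 0.440 CPM (0.51, edgeR adjusted p = 0.0494; called in 4 of 16 alternative fits). Among 9 stellate cell markers, 7 endothelial markers and 8 hepatocyte markers edgeR called 0, with 2, 1 and 1 at an unadjusted p under 0.05; DESeq2 called 1 stellate and 1 hepatocyte marker and limma-voom 0. *Alb*, albumin, was at 123533 ± 4099 and 125411 ± 15527 CPM and *Cyp2e1*, a drug-metabolising enzyme, at 9008 ± 461 and 9200 ± 1226 CPM. *Ecm1* and *Reln*, of stellate cells, were at 94.2 ± 15.4 and 84.1 ± 19.8 CPM and at 66.8 ± 11.8 and 59.7 ± 20.8 CPM. *Stab2* and *Fcgr2b*, of the sinusoidal endothelium, were at 84.8 ± 9.53 and 78.4 ± 7.55 CPM and at 66.1 ± 6.18 and 76.1 ± 11.5 CPM (SD, n = 4 throughout).

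The genes whose pattern over the 8 livers was most like that of *Gpnmb* were *Nrn1*, *Mlxipl*, *Sdr9c7*, *Mroh2a* and *Mug2*. Likeness was the root mean square difference of log2 CPM after each gene was centred on its own mean, and it was 0.142 for *Nrn1* and 0.177 for *Mug2*. *Nrn1* averaged 247 and 119 CPM, *Mlxipl*, which encodes the glucose-sensing factor ChREBP, 89.1 and 41.0 CPM, and *Mug2*, a plasma protease inhibitor of hepatocytes, 1168 and 589 CPM. Among the other members, *Cd68* was the nearest, 138th of the tested genes at 0.324, and *Lgals3* was 164th at 0.331. *Lyz2* was 2522nd, *Atp6v0d2* 3213th, *Trem2* 3699th, *Cd9* 6017th, *Mmp12* 6447th, *Ctss* 6675th and *Spp1* 11544th. The 8 livers share their libraries and the split into treatments, so these distances describe the pattern and carry no test.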

How the data were processed

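Liver RNA from 8 *Apoe*-/- mice was sequenced, 4 per group. The authors aligned the reads to mm10 with HISAT2 2.0.5 and computed gene counts with StringTie 1.3.3b; the deposited counts are whole numbers per gene symbol, not normalized. Use of strand in counting was not given in the sources used here, so reads of annotated genes that overlap *Cd9*, *Spp1*, *Mmp12* and *Ctss* could not be separated. Libraries were grouped by their labels, which do not say more of the mice's origin.

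Genes were filtered with filterByExpr (minimum count 10, total 15), which left 12307 of 16540, scaled by TMM and tested with the robust quasi-likelihood test of edgeR 4.0.16 in R 4.3.3, two-sided, with Benjamini-Hochberg adjustment over all genes tested and a threshold of 0.05. The common biological coefficient of variation, the spread between mice beyond counting error, was 0.164. Log2 CPM used a prior count of 2. The members and lists were chosen with earlier results of these data known. Named were all 10 members, up to 3 genes called per list by smallest adjusted p (the other called genes of the lists are given too), the 2 most abundant genes per list, *Lyz1*, the 5 genes most like *Gpnmb*, and *Atp6v0d1*, *Tyrobp*, *Syk*, *Calcr*, *Oscar* and *Vsig4*, chosen after their values were seen. A few list genes that qualified are not reported here. Lists covered partner genes and markers of macrophages, Kupffer cells, monocytes, neutrophils, dendritic cells, osteoclasts, bile duct, stellate, endothelial, muscle and liver cells. Transcript lengths and coordinates came from GENCODE M21 (GRCm38) and promoters from RefSeq (GRCm38.p6). Alternatives were other scalings, filters and tools (DESeq2 1.42.0, limma-voom in limma 3.58.1), the replicate number as a block and each mouse left out.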

Additional observations from a re-analysis of the deposited data

Results flagged for a closer look

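A Dixon gap test was applied to 60 groups of 4 mice, of which about 3 would be marked by chance at the 95% level, and 3 were marked because the gap to the nearest mouse was large against the group's range. The summed CPM of the skeletal muscle markers in the vehicle group had a gap of 0.993 of its range, with 71.3 CPM in mouse 4 and at most 0.506 CPM in the others. *Atp6v0d2* in the ISOGK group had a gap of 0.913, with 1.31 CPM in mouse 4 and at least 4.01 CPM in the other 3. The summed CPM of the osteoclast genes in the vehicle group had a gap of 0.906, with 139 CPM in mouse 1 and at most 106 CPM in the others.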

How the results depend on the processing

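The members were chosen with this comparison known, so their calls below describe the fits and do not test the members. *Gpnmb* (-1.32 to -1.13) and *Cd68* (-0.71 to -0.52) were called lower under all 16 alternatives, and *Lgals3* and *Atp6v0d2* under 9 each. *Trem2*, *Cd9*, *Mmp12*, *Ctss* and *Lyz2* were called under none. *Atp6v0d2* was also not called with no filter beyond 1 count and with the replicate block. Of the other list genes, 7 were called lower and 11 higher. Library size alone gave 13 lower and 6 higher among them and 804 lower and 262 higher over all genes. DESeq2 gave 13 lower and 16 higher among them and 670 lower and 765 higher over all genes.

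With a mouse left out, 2 to 4 members were called lower (2 without vehicle-treated mouse 1, 2 or 4 or ISOGK-treated mouse 2 or 3) and 0 to 1 higher (*Spp1*, 0.81, without ISOGK-treated mouse 4). Calls of other genes were lost without vehicle-treated mouse 2 (*S100a9*), vehicle-treated mouse 2 or 4 (*Chil3*), vehicle-treated mouse 1, 2 or 4 or ISOGK-treated mouse 1 or 4 (*Plac8*), vehicle-treated mouse 1, 2 or 3 or ISOGK-treated mouse 2 or 4 (*Sirpa*), vehicle-treated mouse 1, 3 or 4 or ISOGK-treated mouse 2 (*Mmp15*), vehicle-treated mouse 2, 3 or 4 or ISOGK-treated mouse 2, 3 or 4 (*Nceh1*), any mouse but ISOGK-treated mouse 1 or 4 (*Ctsf*), any mouse but vehicle-treated mouse 4 (*Ocstamp*) and any mouse at all (*Acp5*, *Sox9*). The other list genes gave 4 to 10 lower and 4 to 12 higher, and all genes 160 to 523 lower and 219 to 712 higher, both lowest without vehicle-treated mouse 2, with fewer mice in each fit. Signs that turned were those of *Cd9* (-0.0872 with library size alone, -0.0448 without ISOGK-treated mouse 4), *Mmp12* (-0.13 with library size alone, -0.00135 with no filter, -0.14 without vehicle-treated mouse 1, -0.13 without ISOGK-treated mouse 1) and *Ctss* (0.00582 with limma-voom, 0.00521 with the replicate block, 0.14 without vehicle-treated mouse 3, 0.07 without ISOGK-treated mouse 2, 0.03 without ISOGK-treated mouse 4); the cause was not tested. With a mouse left out, *Cd9* ranged from -0.0448 to 0.0984, *Mmp12* from -0.14 to 0.109 and *Ctss* from -0.100 to 0.14.

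Same-numbered mice did not deviate together (correlations of -0.0144 to 0.0849, 0 of 4 over 0.1, and 1 of 4 mice in each group correlated best with its own number). With the replicate block 3 members were called and 827 genes in all, sharing 688 with the 929 called with no block, and of the list genes other than the members 12 were called lower and 8 higher.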
